A study of Mus musculus with 9 samples.

Results

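Complement and coagulation factors are plasma proteins that the liver makes and secretes. The set described here holds 39 mouse genes of these 2 systems, a list of gene names, out of 24532 genes in the table. A filter on low counts kept 38 of the 39, and Cfd was the member left out. Whole-liver messenger RNA was sequenced in 9 libraries from wild-type C57BL/6 mice whose age the labels do not give. Every mouse had received thioacetamide (TAA), a liver toxin that causes fibrosis, by intraperitoneal injection in rising doses, 2 times a week over 10 weeks. The TAA group (replicates 12, 13 and 14) received normal saline as its control injection. The 2-week group (replicates 17, 18 and 19) was given recombinant human cytoglobin (rhCYGB), a globin protein, at 2 mg/kg into the tail vein 2 times a week during the last 2 weeks of TAA. In the 5-week group (replicates 23, 27 and 28) the same dose was given during the last 5 weeks. The mice were killed 2 days after the last rhCYGB dose. TAA was shared by all groups, no liver without TAA was analysed here, and the labels leave it unsaid whether every replicate comes from its own animal. The p-values given here then cover only how far these samples differ from each other, which may be technical.

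Complement is a cascade of plasma proteases and binding proteins that marks and lyses microbes and clears cell debris. Its classical, lectin and alternative routes meet at C3, and the terminal components then build a membrane pore. Coagulation is a parallel cascade in which a contact (intrinsic) route and a tissue factor (extrinsic) route meet at factor X and thrombin, which turns fibrinogen into fibrin, while proteins C and S restrain the cascade and plasmin dissolves the clot. Hepatocytes secrete most of these proteins, with exceptions such as factor VIII of endothelial cells, properdin of myeloid cells and factor D of adipocytes.

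The libraries held 55655727 to 87289945 estimated reads, and no pair of them was identical. Levels are given as CPM, estimated reads scaled to library size by TMM, a method that assumes most genes keep their share. The TMM factors were 1.11 to 1.18 in TAA and 0.843 to 1.04 in the 6 rhCYGB libraries, so the scaling itself differed between the groups. The 12 hepatocyte markers were all detected and summed to 122931 to 137867 CPM in TAA, 138340 to 182033 CPM after 2 weeks and 133157 to 180256 CPM after 5 weeks. The 39 members together took 4.01 to 4.13% of all estimated reads in TAA, 3.69 to 4.03% in the 2-week group and 3.61 to 4.09% in the 5-week group. In whole tissue, fewer cells of a type and less RNA per cell cannot be told apart. Replicate 23 of the 5-week group stood apart among the members: it was the highest of the 9 libraries for 21 of the 38 genes.

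The sequences just upstream of 6 members are shown because these genes carry the results below: F12 and the mannose-binding lectins Mbl1 and Mbl2 rose after 2 weeks, and the fibrinogen genes Fga, Fgb and Fgg lie side by side and are abundant, each among the 6 members highest in FPKM. Each runs 5′ to 3′ on the gene's own strand and ends next to the start of a RefSeq transcript in build GRCm38.p6, the same assembly as mm10, except that 77 bases of an annotated exon were left out of the Fga window. The windows lie at chr13:55426805-55427054 (F12, minus strand), chr14:41151206-41151455 (Mbl1, plus), chr19:30232678-30232927 (Mbl2, plus), chr3:83025903-83026075 (Fga, plus), chr3:83049864-83050113 (Fgb, minus) and chr3:83007474-83007723 (Fgg, plus). Capitals mark matches to 4 motifs of liver transcription factors, and in Mbl1 and Mbl2 also the longest run of bases that their windows share.
F12: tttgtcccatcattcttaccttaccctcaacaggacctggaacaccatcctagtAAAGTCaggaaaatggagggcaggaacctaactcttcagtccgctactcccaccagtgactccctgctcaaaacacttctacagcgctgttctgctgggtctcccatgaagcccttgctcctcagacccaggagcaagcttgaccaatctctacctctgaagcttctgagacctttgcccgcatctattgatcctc
Mbl1: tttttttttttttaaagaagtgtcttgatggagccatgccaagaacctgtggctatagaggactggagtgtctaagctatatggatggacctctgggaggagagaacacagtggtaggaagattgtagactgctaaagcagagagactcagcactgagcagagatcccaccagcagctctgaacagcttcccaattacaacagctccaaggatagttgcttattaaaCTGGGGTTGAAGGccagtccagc
Mbl2: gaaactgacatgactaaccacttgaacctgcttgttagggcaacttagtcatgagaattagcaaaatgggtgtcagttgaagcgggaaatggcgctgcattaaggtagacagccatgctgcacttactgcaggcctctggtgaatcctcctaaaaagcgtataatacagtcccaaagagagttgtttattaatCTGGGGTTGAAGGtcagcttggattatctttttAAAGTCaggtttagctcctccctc
Fga: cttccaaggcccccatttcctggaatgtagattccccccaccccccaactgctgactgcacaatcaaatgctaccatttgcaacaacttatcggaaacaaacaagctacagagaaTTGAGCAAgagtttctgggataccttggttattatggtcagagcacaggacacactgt
Fgb: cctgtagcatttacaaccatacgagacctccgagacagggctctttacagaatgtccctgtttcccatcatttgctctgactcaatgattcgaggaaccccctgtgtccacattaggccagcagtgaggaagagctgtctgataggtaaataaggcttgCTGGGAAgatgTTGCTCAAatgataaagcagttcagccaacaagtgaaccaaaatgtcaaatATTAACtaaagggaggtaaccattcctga
Fgg: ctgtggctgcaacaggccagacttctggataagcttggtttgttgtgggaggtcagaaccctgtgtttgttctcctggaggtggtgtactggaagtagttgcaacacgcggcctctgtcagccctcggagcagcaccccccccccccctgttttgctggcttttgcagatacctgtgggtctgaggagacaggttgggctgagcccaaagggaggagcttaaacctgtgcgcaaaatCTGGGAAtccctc

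The motifs were searched on both strands: GTTAAT for HNF1, AAAGTC as the core of HNF4 (both hepatocyte nuclear factors), TTGCNNAA for C/EBP, and CTGGGAA as the type II element of the interleukin 6 response. In F12 the capitals are AAAGTC, 196 to 191 bases before the start. The Mbl2 window has AAAGTC 24 to 19 bases before the start. Both lectin windows hold the 13-base run CTGGGGTTGAAGG, beginning 23 bases before the start in Mbl1 and 57 bases before it in Mbl2, and among 32851 windows of 250 bases only that of Slc25a53 held it besides. Fgb carried 3 matches: CTGGGAA at 91 to 85, TTGCTCAA at 80 to 73 and ATTAAC at 29 to 24 bases before the start. ATTAAC is the reverse complement of GTTAAT, which is the motif on the opposite strand. The Fga window has TTGAGCAA at 135 to 128 on the opposite strand, and Fgg has CTGGGAA at 13 to 7. No matches overlapped in the windows shown.

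RefSeq windows were found for 31 of the 39 members, in 33 windows, and not for Masp1, C2, C4b, Cfb, Cfi, Kng1, Proc and Plg. GTTAAT occurred in 10 of the 33 (30.3%, against 6.43% of all windows), in C4bp, C8a, C8b, Cfp, F13b, Fga, Fgb, Hc, Proz and Vtn. The match of Fga lies outside the part of its window printed above. TTGCNNAA was in 8 (24.2% against 9.56%), AAAGTC in 7 (21.2% against 12%) and CTGGGAA in 4 (12.1% against 9.1%). Of the 5 genes with a window that rose after 2 weeks, F12, Mbl2 and C8g held AAAGTC, Cfp held GTTAAT and Mbl1 held none of the 4 motifs. These are matches of letters and not measured binding sites.

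Messages of 2 fibrinogen chains had the highest mean levels of the set per length, on the deposited FPKM scale (fragments scaled for transcript length and library size). The B beta chain gene Fgb averaged 2546 FPKM (2143 to 2976) over the 9 libraries and the gamma chain gene Fgg 2009 FPKM (1719.6 to 2387). Vtn, vitronectin, which binds the terminal complement complex, averaged 1609 FPKM (1406 to 1817). C3, the protein at which the complement routes meet, averaged 1605 FPKM (1332 to 1835). Kng1, the kininogen that carries the contact factors and releases bradykinin, averaged 1561 FPKM (1242 to 1770.5). The ranges of Fgg, Vtn, C3 and Kng1 overlapped, so the order of these neighbours does not hold beyond the spread between libraries. The A alpha chain gene Fga followed with 1259 FPKM (998 to 1466), then prothrombin F2 with 665 FPKM (611 to 739), plasminogen Plg with 615 FPKM (531 to 690.2) and factor B (Cfb) with 449 FPKM (400.3 to 550.0). The ranges of F2, Plg and Cfb overlapped as neighbours in this order but lay wholly below that of Fga.

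The 3 fibrinogen chains, which form 1 hexameric protein, kept close proportions. The FPKM ratio of Fgb to Fga lay between 1.80 and 2.32 in the 9 libraries and that of Fgb to Fgg between 1.22 and 1.36. At the low end stood F8, factor VIII, with 0.934 FPKM (0.638 to 1.1) and Masp1, a protease of the lectin route, with 5.91 FPKM (1.89 to 15.8). Pros1, protein S, averaged 15.8 FPKM (9.95 to 22) and Cfp, properdin, 20.1 FPKM (14.8 to 26.7). Cfd, factor D, the protease that starts the alternative route, had 17 estimated reads in TAA replicate 14, 3 in the 2-week replicate 17 and 0 in the other libraries. A count of 0 allows up to 3 reads, or 0.0380 to 0.0620 CPM depending on the library, for counting error only. Of 8 adipocyte markers, the hormones Lep and Retn were at 0 in all 9 libraries, but others were detected. The 8 together summed to 96.2 to 107 CPM in TAA, 96.9 to 142 CPM after 2 weeks and 103 to 137 CPM after 5 weeks.

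Comparing the 2-week group with TAA asks which of these genes a short course of rhCYGB moved in the injured liver. Of 38 tested members 6 rose and none fell. That is 15.8% called, all higher, against 3.31% of the 14731 genes called in either direction, 1.98% called higher and 1.34% called lower. With library totals in place of TMM, C8g, F12 and Mbl1 were called higher and F11 lower, C2, Cfp and Mbl2 lost their calls, and of all genes 0.747% were called higher and 10.9% lower. The genes that rose were Mbl1, Mbl2, C2, Cfp, C8g and F12, by 1.45-fold (Mbl2) to 2.25-fold (C8g). At an unadjusted p under 0.05 there were 14 members, 13 higher and F11 lower, and 23.4% of all genes. The 7 higher ones that the adjustment left out were Cfb, Vtn, F7, F10, F2, Proc and Cpb2, and DESeq2 called all 13 (of 38, against 6.71% of the genes it tested called higher). Among the 1356 genes that averaged 100 CPM or more, 9.37% rose, beside 4 of the 31 members at that level (12.9%).

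Over all 38 members the median log2 change at 2 weeks was 0.24, beside -0.03 for all 14731 genes. With library totals it turned to -0.091 beside -0.36. Under TMM, genes of at least 100 CPM had a median of 0.30, and the 31 members at that level 0.24. The 2-week libraries lay wholly above TAA for 15 members (39.5%, against 17.3% of all genes) and wholly below for 0 (against 16.3%). Among genes of at least 100 CPM the share above was 46.6%, and 12 of 31 members (38.7%). Neither this share of the members nor their median was above that of genes of similar level. Their share called higher was above it (4 of 31, 12.9%, against 9.37%). Calls at 2 weeks also depended on single libraries. No member was called without TAA replicate 12, 13 or 14 or without replicate 17 or 18 of the 2-week group. All genes called then numbered 31, 1, 2, 5 and 3 in that order, against 488 with every library. C8g, F12 and Mbl1 were called without replicate 19 (368 of all genes) and without replicate 28 of the 5-week group (169 of all genes). Without replicate 23 of the 5-week group 8 members were called (1095 of all genes), and without replicate 27, 9 (888 of all genes).

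**Figure D1:**
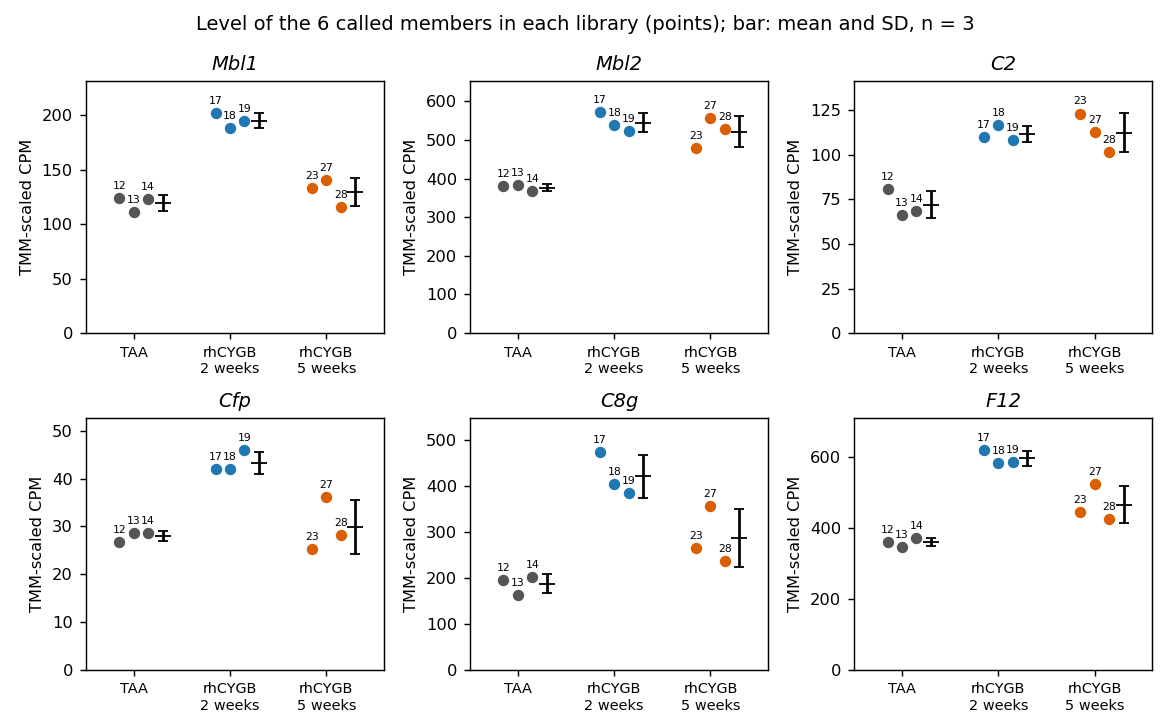
TMM-scaled CPM (vertical axes, from 0) of the 6 members that rose in the 2-week group, in each library (points, numbered by replicate) with the mean and SD of each group (n = 3). In all 6 panels the 3 libraries of the 2-week group lie above the 3 of TAA, while in the 5-week group Mbl1 and Cfp overlap with TAA.

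Among the genes that start complement, 4 of 9 tested rose in the 2-week group and 5 were not called. Mbl1 (gene ID 17194, mm10 chromosome 14, 41151456 to 41158959) encodes a mannose-binding lectin, which recognises microbial sugars and opens the lectin route. It stood at 124, 111 and 123 CPM in TAA, 202, 188 and 195 in the 2-week group and 133, 140.3 and 115 in the 5-week group. The 2-week libraries were all higher than the others, and the 5-week libraries lay across those of TAA. The log2 change of Mbl1 at 2 weeks was 0.71 ± 0.11 (SE, adjusted p = 0.024), a 1.63-fold rise.

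Mbl2 (gene ID 17195, chromosome 19, 30232957 to 30239682), the other mannose-binding lectin gene, had 379.9, 383 and 368 CPM in TAA, 572, 538 and 524 in the 2-week group and 478, 556 and 529 in the 5-week group. Both rhCYGB groups lay wholly above TAA. The log2 change was 0.53 ± 0.10 (SE, adjusted p = 0.0336) at 2 weeks, which passed, and 0.47 ± 0.10 (SE, adjusted p = 0.0603) at 5 weeks, which did not. C2 (gene ID 12263, chromosome 17, 34862602 to 34882100) supplies the protease of the C3 convertase of the classical and lectin routes. It measured 80.9, 66.5 and 68.7 CPM in TAA, 110.1, 117 and 108 in the 2-week group and 123, 113 and 102 in the 5-week group. Every rhCYGB library was above every TAA library, and C2 was the member that passed in both comparisons with TAA, with log2 changes of 0.63 ± 0.12 (SE, adjusted p = 0.0327) at 2 weeks and 0.64 ± 0.12 (SE, adjusted p = 0.0468) at 5 weeks. The 2 comparisons share the same TAA libraries.

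Cfp (gene ID 18636, chromosome X, 20925454 to 20931555) encodes properdin, which stabilises the alternative route's C3 convertase. Its level was 26.7, 28.7 and 28.6 CPM in TAA, 42, 42.1 and 46 in the 2-week group and 25.2, 36.2 and 28.3 in the 5-week group. The 2-week libraries lay above all the others, with a log2 change of 0.63 ± 0.14 (SE, adjusted p = 0.0467) from TAA, and the 5-week libraries spanned those of TAA, with replicate 27 above them. Because myeloid cells make properdin, marker genes of those cells are given here. The 12 macrophage and Kupffer cell markers summed to 963 to 1030.4 CPM in TAA, 856 to 1270 CPM after 2 weeks and 635 to 872 CPM after 5 weeks. At 2 weeks 6 of them had positive and 6 negative log2 changes, with a median of 0.03, and 1 passed, the Kupffer cell lectin Clec4f (0.85 ± 0.18 (SE, adjusted p = 0.0411)). The 9 neutrophil and monocyte markers summed to 23.6 to 76.4, 23.2 to 53.9 and 17.8 to 26.6 CPM in the same order. The part of these cells in the rise of Cfp was not tested.

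Cfb, factor B, which is the protease of the alternative convertase, missed the threshold at 2 weeks with 1021 to 1077 CPM in TAA and 1354 to 1589 CPM in the 2-week group (log2 change 0.47 ± 0.11 (SE, adjusted p = 0.0542)). Its groups did not overlap. Cfb and C2 lie 87 bases apart on chromosome 17. The remaining genes of this role had log2 changes at 2 weeks of 0.24 ± 0.20 (C1s1, a protease of C1), 0.26 ± 0.12 (Masp2, the main protease of the lectin route), 0.24 ± 0.14 (C4b, cleaved by it) and -0.70 ± 0.53 (Masp1). C1s1 and C4b have near-identical copies in the mouse genome and are uncertain as single genes.

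Of the 7 genes from C3 to the pore, C8g rose and the other 6 were not called. C8g (gene ID 69379, chromosome 2, 25498650 to 25501719) encodes the gamma chain of C8, a lipocalin bound to the alpha chain. It had 195, 163 and 202 CPM in TAA, 475, 404 and 386 in the 2-week group and 266, 358 and 238 in the 5-week group. The 2-week libraries were the highest, the 5-week libraries intermediate, and the 3 groups did not overlap. C8g had the largest log2 change of the 38 members at 2 weeks, 1.17 ± 0.17 (SE, adjusted p = 0.0235), or 2.25-fold. The genes of its partner chains were not called: C8a changed by 0.03 ± 0.22 (SE, adjusted p = 0.943) and C8b by 0.13 ± 0.22 (SE, adjusted p = 0.752), although the 3 proteins form 1 complex.

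C3 measured 7943, 7801 and 7112 CPM in TAA, 9609.8, 8536 and 9211 in the 2-week group and 9787, 7595 and 7863 in the 5-week group. The 2-week libraries were all above TAA, by 0.26 ± 0.13 (SE, adjusted p = 0.268) on the log2 scale, which did not pass, and this value turned to -0.073 when libraries were scaled by their totals. Hc, which encodes C5 in the mouse, changed by 0.23 ± 0.24, C6 by 0.14 ± 0.30 and C9, the pore-forming component, by 0.16 ± 0.17.

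None of the 3 control proteins was called. Vtn had 2593, 2269.6 and 2601 CPM in TAA, 3827, 3524 and 2936 in the 2-week group and 2729, 3041 and 2402 in the 5-week group, higher in every 2-week library than in TAA (0.46 ± 0.14 (SE, adjusted p = 0.0968)). Cfi, factor I, which cuts C3b and C4b, had 696, 691 and 602 CPM in TAA, 682, 650.3 and 789 in the 2-week group and 884, 755 and 739 in the 5-week group, and its 2-week libraries overlapped TAA. C4bp, the cofactor that binds C4b, changed by -0.14 ± 0.17 at 2 weeks.

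In the contact and intrinsic route 1 of 6 genes rose. F12 (gene ID 58992, chromosome 13, 55417958 to 55426804) encodes factor XII, the protease that starts the contact route on negatively charged surfaces. Its level was 362, 348 and 373 CPM in TAA, 622, 584 and 586 in the 2-week group and 446, 526 and 427 in the 5-week group. All 2-week libraries lay above all 5-week libraries, and those lay above all TAA libraries. The log2 change of F12 was 0.73 ± 0.11 (SE, adjusted p = 0.024) at 2 weeks and 0.37 ± 0.11 (SE, adjusted p = 0.127) at 5 weeks, the latter not called.

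Kng1 had 2855, 2556 and 2899 CPM in TAA, 3775, 3448 and 3042 in the 2-week group and 2541, 3861 and 3253 in the 5-week group, with every 2-week library above TAA (0.30 ± 0.16 (SE, adjusted p = 0.282), not called, and -0.031 with library totals). F11, factor XI, singled out after its values were seen, was the member with an unadjusted p under 0.05 and a lower level. It stood at 65.3, 52.4 and 41.3 CPM in TAA, 38.8, 46.1 and 33.4 in the 2-week group and 59.8, 52.5 and 51.7 in the 5-week group. Its 2-week libraries overlapped TAA, and the log2 change of -0.43 ± 0.18 (SE, adjusted p = 0.196) was not called under TMM scaling but was called as a fall with library totals. Klkb1 (prekallikrein), F9 and F8 changed by 0.28 ± 0.19, 0.17 ± 0.16 and -0.03 ± 0.15 at 2 weeks.

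No gene of the extrinsic and common route was called. The 2-week libraries of 3 of the 4 lay wholly above TAA, as did those of 17.3% of all genes and of 46.6% of genes of at least 100 CPM. F2, prothrombin, measured 1197, 1128 and 1162 CPM in TAA, 1497, 1493 and 1579 in the 2-week group and 1519, 1511 and 1331 in the 5-week group. Its rhCYGB libraries were all above TAA, with a log2 change of 0.39 ± 0.11 (SE, adjusted p = 0.0705) at 2 weeks and 0.32 ± 0.11 (SE, adjusted p = 0.145) at 5 weeks. F7 changed by 0.50 ± 0.14 (SE, adjusted p = 0.0784) and F10, which lies 1502 bases from F7, by 0.55 ± 0.15 (SE, adjusted p = 0.0773) at 2 weeks. F5, the cofactor of factor X, changed by -0.15 ± 0.24 (SE, adjusted p = 0.714).

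The fibrinogen genes did not pass at 2 weeks. Fgb had 4199, 3984 and 4574 CPM in TAA, 6065, 4481 and 4529.8 in the 2-week group and 3792, 4373 and 3793 in the 5-week group. Replicate 17 held the highest value of Fgb, Fga and Fgg alike, and the other 2-week libraries lay within or near the range of TAA. Fgg had 3359, 3222 and 3716 CPM in TAA, 4793, 3335 and 3781 in the 2-week group and 3149, 3515 and 2944 in the 5-week group. The log2 changes were 0.24 ± 0.15 (SE, adjusted p = 0.342) for Fgb, 0.21 ± 0.15 (SE, adjusted p = 0.42) for Fgg and 0.17 ± 0.14 (SE, adjusted p = 0.497) for Fga, and those of Fgb and Fgg turned to -0.099 and -0.13 with library totals.

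Among anticoagulants and fibrinolysis genes none of 5 was called. Proc, protein C, stood at 321, 248 and 297 CPM in TAA, 472, 520.3 and 396 in the 2-week group and 367, 461 and 343 in the 5-week group. Its 2-week and 5-week libraries were all above TAA, and the log2 change at 2 weeks was 0.68 ± 0.16 (SE, adjusted p = 0.0521), just outside the threshold. Cpb2, which encodes the carboxypeptidase that shields fibrin from plasmin, changed by 0.45 ± 0.13 (SE, adjusted p = 0.0765), with groups that did not overlap. Plg changed by 0.10 ± 0.12, Pros1 by -0.32 ± 0.19 and Proz, protein Z, by -0.19 ± 0.26.

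**Figure D2:**
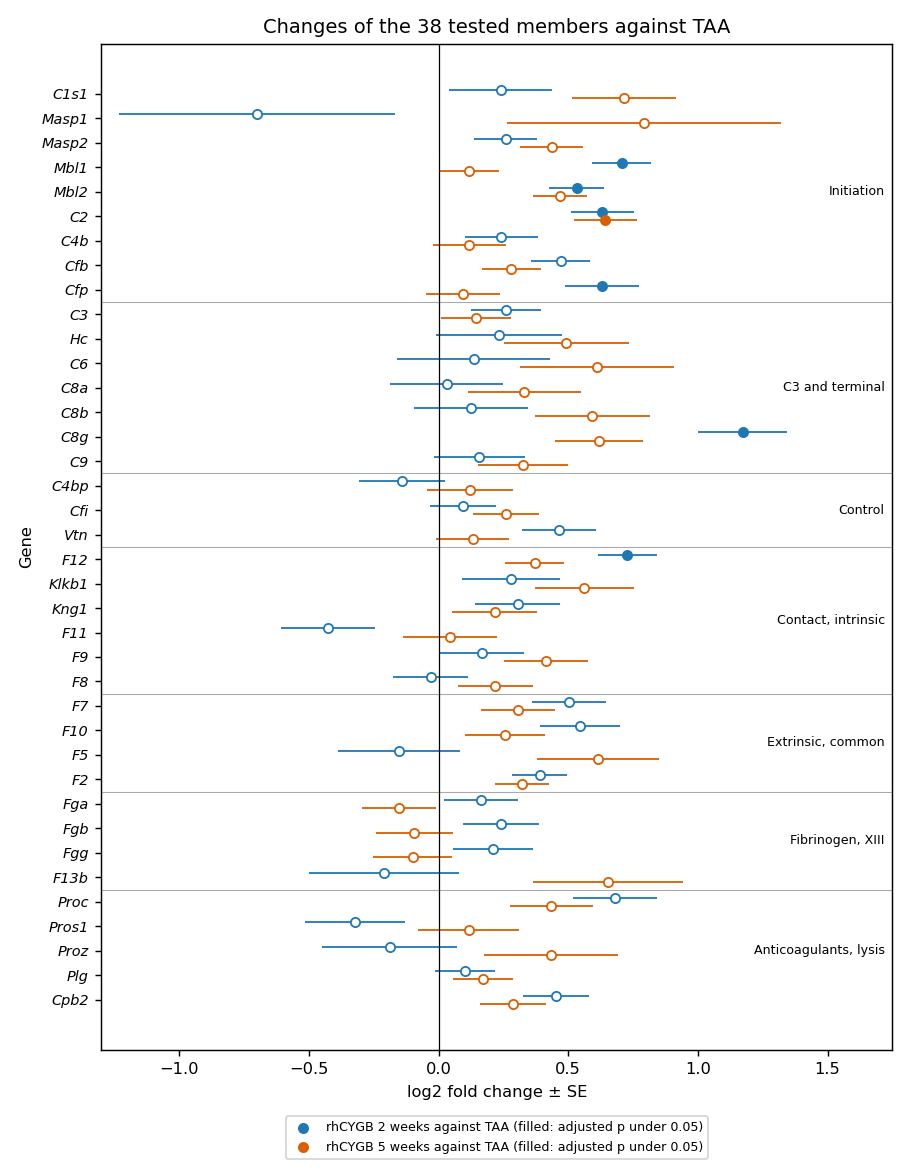
Log2 fold changes with their SE (horizontal axis) of the 38 tested members, in order of role, for the 2-week group (blue) and the 5-week group (orange) against the same TAA libraries. Filled points passed an adjusted p under 0.05: 6 genes at 2 weeks and C2 alone at 5 weeks. With library totals in place of TMM, the members' median at 2 weeks turns from 0.24 to -0.091.

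Comparing the 5-week group with TAA asks the same of the longer course. Only C2 rose among the 38 members (2.63%, against 1.29% of all genes called in either direction and 0.686% called higher), and none fell (against 0.604%). Its call ended when any 1 of the 9 libraries was left out, with log2 changes between 0.56 and 0.73, and with library totals (0.42). At an unadjusted p under 0.05 there were 15 members, all higher, and 19.2% of all genes. DESeq2 called 7 (against 4.48% of the genes it tested called higher), all higher: C1s1, C2, C8g, F12, F2, Masp2 and Mbl2. With edgeR and TMM, 3.61% of the 1356 genes that averaged 100 CPM or more rose, beside 0 of the 31 members at that level.

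Over the 38 members the median log2 change at 5 weeks was 0.31 beside 0.01 for all genes. It was 0.17 without replicate 23, and 0.094 beside -0.21 with library totals. Under TMM with all libraries, genes of at least 100 CPM had a median of 0.20, and the 31 members at that level 0.33. The 5-week libraries lay wholly above TAA for 13 members (34.2%, against 11.6% of all genes) and wholly below for 0 (against 13.4%). Among genes of at least 100 CPM the share above was 33.1%, and 12 of 31 members (38.7%).

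By role, the 5-week values were mostly positive and not called. In the starting proteases C1s1 changed by 0.72 ± 0.20 (SE, adjusted p = 0.101), Masp2 by 0.44 ± 0.12 (SE, adjusted p = 0.101) and Cfb by 0.28 ± 0.11 (SE, adjusted p = 0.219). In the terminal group C8g changed by 0.62 ± 0.17 (SE, adjusted p = 0.0974), C8b by 0.59 ± 0.22 (SE, adjusted p = 0.188) and Hc by 0.49 ± 0.24 (SE, adjusted p = 0.302). Among control proteins Cfi changed by 0.26 ± 0.13 (SE, adjusted p = 0.304). In the intrinsic route Klkb1 changed by 0.56 ± 0.19 (SE, adjusted p = 0.155) and F9 by 0.41 ± 0.16 (SE, adjusted p = 0.206). F5 changed by 0.62 ± 0.24 (SE, adjusted p = 0.197) and Proc by 0.43 ± 0.16 (SE, adjusted p = 0.185).

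The fibrinogen genes were the 3 members with negative values at 5 weeks, -0.15 ± 0.14 (SE, adjusted p = 0.605) for Fga, -0.09 ± 0.15 (SE, adjusted p = 0.783) for Fgb and -0.10 ± 0.15 (SE, adjusted p = 0.774) for Fgg. Their 5-week libraries overlapped TAA. F13b, the carrier subunit of the fibrin-crosslinking factor XIII, went the other way. It measured 105, 122 and 80.5 CPM in TAA, 71.8, 73.6 and 120.2 in the 2-week group and 227, 113 and 143 in the 5-week group, with replicate 23 far above the rest and the groups overlapping (0.65 ± 0.29 (SE, adjusted p = 0.257)).

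Several members were high in replicate 23, and the 3 given here were picked after their values were seen. Masp1 had 14.2, 20.1 and 9.22 CPM in TAA, 6.3, 5.92 and 14.6 in the 2-week group and 45.1, 10.6 and 19.7 in the 5-week group. F5 had 203, 224 and 156 CPM in TAA, 160.2, 169 and 195 in the 2-week group and 419, 217 and 259 in the 5-week group. C6 had 179, 133 and 119 CPM in TAA, 173, 157 and 144 in the 2-week group and 341, 139 and 179 in the 5-week group. In each of them replicate 23 was the highest library of all 9, and the rest of the 5-week group lay within or near the range of the other groups. The members' median difference from the TAA mean was 0.40 in replicate 23, 0.23 in 27 and 0.20 in 28, and 0.29, 0.15 and 0.25 in the 2-week replicates 17, 18 and 19, on the log2 scale. TAA replicates 14 and 13 were the lowest libraries for 16 and 10 members.

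**Figure D3:**
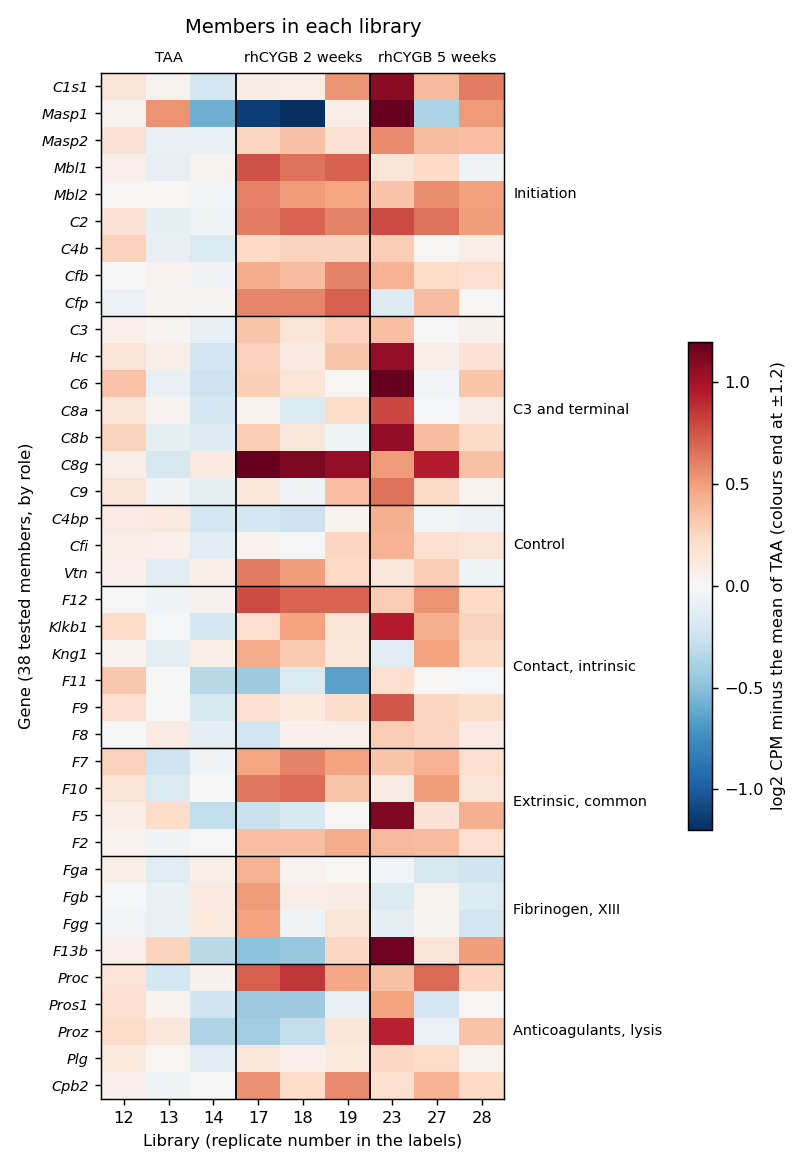
Log2 CPM of each of the 38 tested members minus its mean in TAA (colour, blue lower and red higher, ending at ±1.2), in rows by role and columns by library, numbered by replicate. Replicate 23 is the highest library for 21 of the 38 members, among them Masp1, C6, F5 and F13b, while Mbl1 and Cfp are red mainly in the 2-week libraries.

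Set directly against each other, the 5-week and 2-week groups gave no called member (0 of 38, against 0.0204% of all genes, 3 in number, with 0.0136% higher and 0.00679% lower). At an unadjusted p under 0.05 there were 13 members, 7 higher and 6 lower in the 5-week group, beside 23.2% of all genes. DESeq2 called 3, Mbl1 and Cfp lower and F5 higher, and 5.93% of the genes it tested. The 5-week libraries lay wholly above the 2-week libraries for F5, F8, F9, Masp2 and F11 (5 of 38, 13.2%, against 10.9% of all genes). They lay wholly below for F7, Fga, Mbl1, Cfp, F12, C8g and Fgb (7 of 38, 18.4%, against 10.2%). The log2 difference was -0.59 ± 0.11 (SE, adjusted p = 0.134) for Mbl1, -0.55 ± 0.17 (SE, adjusted p = 0.173) for C8g and -0.54 ± 0.14 (SE, adjusted p = 0.158) for Cfp, and 0.77 ± 0.24 (SE, adjusted p = 0.173) for F5. Without replicate 27, 7 members were called, C8g, Cfp, F12 and Mbl1 lower and F13b, F5 and Masp1 higher, where all genes called numbered 1889.

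Transcript length went along with the changes. Across the 38 members the rank correlation between log2 change and transcript length was -0.49 at 2 weeks, 0.17 at 5 weeks and 0.55 between the 5-week and 2-week groups. Across all 14731 genes it was -0.42, 0.05 and 0.47, from the same libraries. These are descriptions over genes, which are not independent replicates. The 14 tested members with transcripts under 2000 bases had a median log2 change of 0.48 at 2 weeks and the 24 longer ones 0.15, beside 0.24 and -0.13 for all genes split at the same length. Of the 6 genes that rose, Mbl1, Mbl2, Cfp, C8g and F12 were under 2000 bases (5 of 14, 35.7%, against 4.37% of all genes of that length called higher) and C2 was longer. The 4.37% covers genes of every level, and among genes of any length with at least 100 CPM the share called higher was 9.37%.

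**Figure D4:**
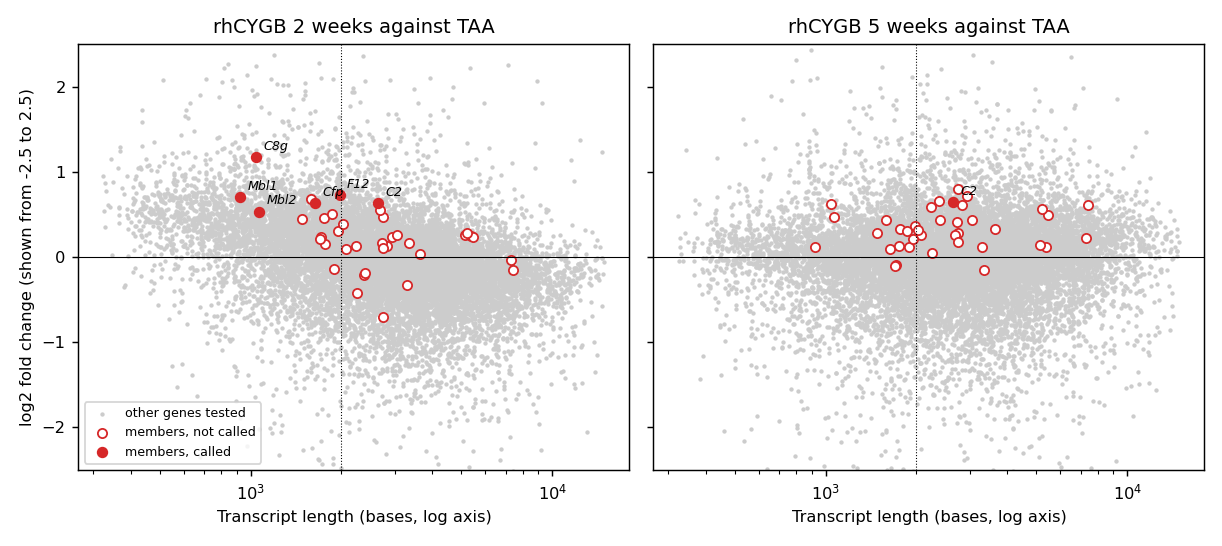
Log2 fold change against TAA (vertical axis, shown from -2.5 to 2.5) by transcript length in bases (horizontal log axis, dotted line at 2000), for the members (red, filled where called) and the other tested genes (grey), at 2 weeks (left) and 5 weeks (right). At 2 weeks the grey cloud and the members both slope down with length (rank correlations of -0.42 and -0.49), and 5 of the 6 called members lie under 2000 bases.

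When each library's trend over length was removed before testing, C8g kept a log2 change of 0.87 (adjusted p = 0.0145), F12 0.63 (adjusted p = 0.0145), C2 0.66 (adjusted p = 0.0245) and Cfp 0.47 (adjusted p = 0.0442) at 2 weeks. Mbl1 then changed by 0.37 (adjusted p = 0.172) and Mbl2 by 0.23 (adjusted p = 0.258), so neither was called. C3, Cfb and Proc were called as higher in that fit, which made 7 of 38 members at 2 weeks, against 2.48% of all genes called higher. At 5 weeks it called C2, C8g, F12 and Mbl2, against 2.51% of all genes called higher.

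At the level of transcripts, 15 of the 39 members had more than 1 in the table, 60 transcripts in all. Masp2, picked after its values were seen, had a 744-base and a 3059-base form, and the gene is known to give a truncated product without the protease domain beside the full protease. The short form had 42.1, 36.1 and 38.9 CPM in TAA, 72.2, 67.2 and 49.5 in the 2-week group and 53.6, 61.2 and 44.0 in the 5-week group. Both rhCYGB groups lay above TAA for it. The long form had 102, 84.2 and 81.3 CPM in TAA, 80.5, 96.0 and 94.5 in the 2-week group and 136, 105 and 121 in the 5-week group, so only the 5-week libraries were above TAA. The short form's share of Masp2 was 30.5 ± 1.63% in TAA, 40.9 ± 6.45% after 2 weeks and 30.6 ± 5.46% after 5 weeks (SD, n = 3). The 2-week shares (34.4 to 47.3%) lay above those of TAA (29.2 to 32.3%), and the 5-week shares (26.7 to 36.9%) overlapped them. These values are a description with no test, since they led to the choice of Masp2. The trend over length at 2 weeks, given above for genes, runs in the same direction, and its part in this share was not tested.

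**Figure D5:**
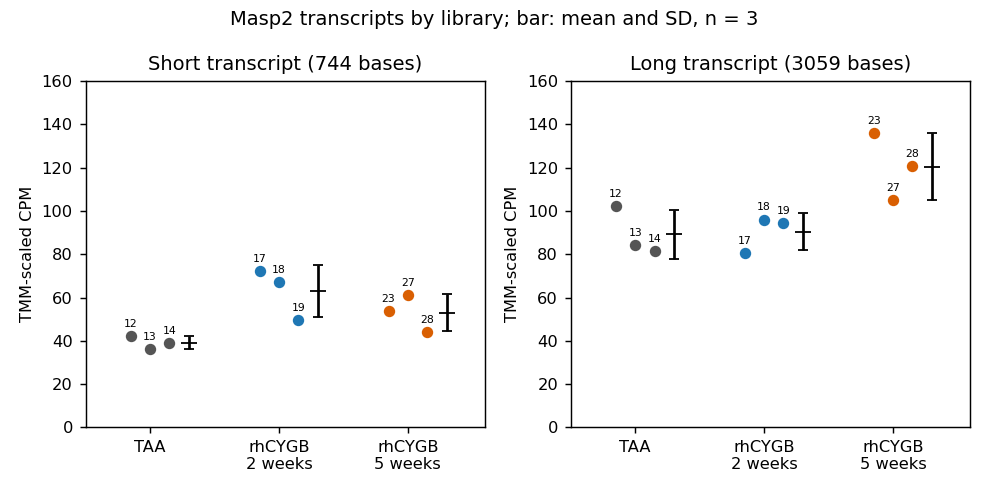
TMM-scaled CPM (vertical axes, from 0) of the 744-base (left) and 3059-base (right) transcripts of Masp2 in each library (points, numbered by replicate) with the mean and SD of each group (n = 3). The short form is higher in all 6 rhCYGB libraries than in TAA, and the long form is above TAA in the 5-week libraries only.

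In the genome, 12 members lie within 100000 bases of another, in 7 neighbouring pairs: Cfb and C2, Fgg and Fga, Fga and Fgb, C8b and C8a, F7 and F10, F10 and Proz, and F11 and Klkb1. The estimates of neighbours did not always share a sign. Of the genes in these pairs edgeR with TMM called only C2, at 2 weeks and at 5 weeks. Differences between neighbours were not tested. F11 had a log2 change of -0.43 ± 0.18 (SE) at 2 weeks and Klkb1, 4656 bases away, 0.28 ± 0.19. F10 had 0.55 ± 0.15 and Proz, 4231 bases away, -0.19 ± 0.26. The fibrinogen genes, 11096 and 8628 bases apart on chromosome 3, had 0.21 (Fgg), 0.17 (Fga) and 0.24 (Fgb) at 2 weeks and -0.10, -0.15 and -0.09 at 5 weeks.

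The other genes of the 2 systems were taken from separate lists. Of 31 tested receptors, inhibitors and activators of coagulation and fibrinolysis, 5 fell and 1 rose at 2 weeks. Of all genes 1.34% were called lower and 1.98% higher. With library totals 11 of the list fell and none rose, where 10.9% of all genes were called lower and 0.747% higher. Plau, the urokinase activator of plasminogen, had 3.44, 4.3 and 3.98 CPM in TAA, 0.847, 1.44 and 1.15 in the 2-week group and 2.1, 1.49 and 2.1 in the 5-week group. Its TAA libraries were the highest, and it fell by 1.76 ± 0.25 on the log2 scale (adjusted p = 0.0235). Plat, the tissue activator, fell by 1.41 ± 0.26 (adjusted p = 0.0295). Thbd, thrombomodulin, the endothelial receptor through which thrombin activates protein C, fell by 1.36 ± 0.24 (adjusted p = 0.0262), and Fgl2 was also among the genes that fell. Serpinc1, antithrombin, a hepatocyte product like the members, had 1645, 1574 and 1577 CPM in TAA, 2369.6, 2278 and 2275 in the 2-week group and 2021, 2087 and 1889 in the 5-week group and rose by 0.53 ± 0.10 (SE, adjusted p = 0.0319).

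At 5 weeks 3 genes of that list fell, among them Plat by 1.58 ± 0.27 (adjusted p = 0.0379) and Thbd by 1.40 ± 0.24 (adjusted p = 0.0406). The other 28 were not called, and 0.604% of all genes were called lower. The list's median log2 change was -0.26 at 2 weeks and -0.01 at 5 weeks, where the members had 0.24 and 0.31. Beside these falls, the 10 stellate cell and fibroblast markers summed to 1350 to 2040 CPM in TAA, 509 to 904 CPM at 2 weeks and 390.4 to 842 CPM at 5 weeks, and the 8 endothelial markers to 128 to 133, 129.8 to 154 and 104 to 136 CPM. Their part in the falls was not tested.

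Of 29 tested complement genes outside the set, Fcna, ficolin A, a lectin of macrophages that starts the same route as the mannose-binding lectins, rose at 2 weeks from 22.9, 28.5 and 28 CPM to 58.2, 43 and 60.1 CPM. The groups did not overlap, and the log2 change was 1.02 ± 0.23 (SE, adjusted p = 0.0455). Of all genes 1.98% were called higher at 2 weeks. With TMM the other 28 were not called at 2 weeks, and with library totals none of the 29 was. At 5 weeks none of the 29 was called with TMM (8 at an unadjusted p under 0.05, beside 19.2% of all genes, and 2 by DESeq2). There C1ra, the partner protease of C1s1, had the lowest p (0.63 ± 0.14 (SE, adjusted p = 0.0607)). Among 18 hepatocyte transcription factors and cytokine receptors edgeR with TMM called none at either time. At an unadjusted p under 0.05 there were 4 at 2 weeks and 3 at 5 weeks. The lowest p belonged to Nfil3 at 2 weeks (0.74 ± 0.22 (SE, adjusted p = 0.0857)) and to Cebpa at 5 weeks (0.58 ± 0.20 (SE, adjusted p = 0.166)). DESeq2 called 1 and 0. At 2 weeks library totals called 2 lower, beside 10.9% of all genes, and removing the length trend called 1 higher, beside 2.48%.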

How the data were processed

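Per the labels' protocols, stranded poly(A) libraries were made from liver RNA and read from both ends. Per the submitters' processing notes, the tools were HISAT2 2.1.0, StringTie 1.3.4d and FastQC 0.11.7, with the build mm10. Per the file headers, the authors deposited estimated counts (whole numbers) and FPKM per gene and transcript, with transcript lengths. How counts came from StringTie, and whether they used strand, is not given in the sources used here. Antisense partners therefore cannot be told apart, and C4b, C1s1 and Kng1 are uncertain because near-identical copies exist.

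All 9 libraries entered 1 edgeR 4.0.16 quasi-likelihood fit (R 4.3.3, 6 residual degrees of freedom) after filterByExpr (minimum count 10, total 15) and TMM, with Benjamini-Hochberg adjustment over 14731 genes and calls at adjusted p under 0.05. SE is approximate: the absolute log2 change over the root of F. A gene's length is that of its transcript with the highest mean count. Alternatives used limma 3.58.1 on log2(FPKM + 1) and DESeq2 1.42.0. Levels between genes are compared as FPKM.

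Members, roles and lists were chosen with earlier results of these data known. Library values are given for called members, in each role the member of lowest p against TAA, and the 5 members highest in FPKM. Up to 4 called genes were named per other list, otherwise that with the lowest p, and 1 called gene is counted in its list but not reported here. Outside this rule, library values of F11, Masp1, F5, C6 and the Masp2 transcripts were chosen after they were seen, and other genes are given as ranges or single values. Promoters came from RefSeq (GRCm38.p6), and exon bases were left out.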

Additional observations from a re-analysis of the deposited data

How the results depend on the processing

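Each comparison was refitted under 18 alternatives. Scaling by library totals gave 1722, 499 and 3 called genes of all tested (2 weeks, 5 weeks, and 5 against 2 weeks) and 0 members at 5 weeks, and members' medians of -0.091, 0.094 and 0.15. limma on log2(FPKM + 1) gave 1869, 910 and 1 genes, 0 members at 5 weeks, and medians of -0.099 at 2 weeks and 0.075 at 5 weeks. With DESeq2 there were 1713, 1188 and 788 genes and 13, 7 and 3 members. Upper-quartile scaling gave 77 genes and 0 members at 5 weeks, and no filter 105 and 0. Removing the length trend gave 589 genes and 4 members at 5 weeks and 6 genes in 5 against 2 weeks. Fitting only the groups compared gave 1023 genes at 2 weeks, 1 gene and 0 members at 5 weeks, and 0 genes in 5 against 2 weeks. Leaving out 1 library gave 0 to 9 members and 1 to 1095 genes at 2 weeks, 0 to 0 members and 0 to 240 genes at 5 weeks, and 0 to 7 members and 1 to 1889 genes in 5 against 2 weeks. In the same refits the members' median ran from 0.17 to 0.37 at 5 weeks. Without replicates 17, 18 and 23 together there were 0 members and 12 genes at 2 weeks, 0 members, 7 genes and a median of 0.19 at 5 weeks, and 5 genes in 5 against 2 weeks. For single members 815 values kept their direction and side of the threshold, 68 lost a call, 38 gained one and 15 turned. At 2 weeks C3 turned to -0.073 (library totals) and -0.076 (limma), Fgb to -0.099 and -0.11, Fgg to -0.13 and -0.13, and Kng1 to -0.031 and -0.034. At 5 weeks C3 turned to -0.075 and -0.086, Kng1 to -0.0066 and -0.025, and Vtn to -0.093 and -0.095. C1s1 in 5 against 2 weeks turned to -0.024 without replicates 17, 18 and 23. The causes were not tested, and the fits without libraries have fewer samples. No paired analysis was possible because the groups share no replicate numbers. Low counts limit Cfd, and F8 rests on 276 to 544 estimated reads a library.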

Other observations

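Acute phase genes outside the set, which the liver raises in inflammation, were mostly not called. Of 17 tested, 2 rose at 2 weeks, the serum amyloid Saa3 and the orosomucoid Orm3, where 1.98% of all genes were called higher. At an unadjusted p under 0.05, 10 were higher and 2 lower at 2 weeks, beside 23.4% of all genes, and DESeq2 called 4, all higher. Library totals called 2 higher and 2 lower at 2 weeks, where 10.9% of all genes were called lower. Removing the length trend also called 2 higher and 2 lower. At 5 weeks 1 rose, Saa3, where 0.686% of all genes were called higher. At an unadjusted p under 0.05, 2 were higher and 2 lower at 5 weeks, and DESeq2 called 2 higher and 1 lower. Library totals called 1 higher and 2 lower at 5 weeks, and removing the length trend 1 higher and 1 lower. None was called between the 5-week and 2-week groups (6 at an unadjusted p under 0.05, and 2 by DESeq2). Saa3 had 7.31, 3.39 and 6.17 CPM in TAA, 443, 235 and 68.3 in the 2-week group and 46.5, 237 and 101 in the 5-week group. Neither rhCYGB group overlapped with TAA, and the libraries within each differed widely. Orm3 had 2.26, 0.573 and 1.54 CPM in TAA, 13.5, 5.73 and 20.5 in the 2-week group and 2.79, 10.3 and 5.28 in the 5-week group. Both belong to families of near-identical genes. The list's median log2 change was 0.48 at 2 weeks and 0.10 at 5 weeks, and 0.15 and -0.12 with library totals. All 3 fibrinogen genes, which belong to the same response, were not called in either comparison.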
